A study of Mus musculus with 7 samples.

Results

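Skin is built by families of transcription factors that also pattern the embryo, and the genes described here are the members of those families found in mouse epidermis after deletion of Abca12. They were chosen by symbol: the Hox, Sox, forkhead (Fox), GATA, Lhx, Tbx, Pax, Irx, Dlx, Msx, AP-2 (Tfap2), Grainyhead-like (Grhl), Runx, Barx, sine oculis class (Six5 and its relatives), Meis, Nfatc and Ovo-like (Ovol) genes, Trp63, and the ETS genes Ehf and Elf3 to Elf5. Of the 7091 genes in the table analysed, 50 matched. Of these, 48 were protein coding and 2, Dlx4os and Irx3os, were antisense RNAs. Foxred1 and Foxred2 matched by spelling alone, since they encode oxidoreductase-domain proteins and not forkhead factors. The table's own annotation gave 46 of the 50 a transcription factor family. GENCODE M21 holds 191 protein-coding genes with matching symbols, and no Lhx, Tbx, Pax, Msx, Nfatc, Barx or HoxD gene, and not Trp63, was in the table. Those genes were not analysed here. Its authors listed only genes that passed their own test at 0.05 after adjustment, so every member had already been selected on these 7 libraries, and a gene outside it is not shown to be unchanged.

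Abca12 encodes a lipid transporter that keratinocytes use to build the lipid barrier of the skin. KA mice carried K14-CreERT with the conditional allele (K14-CreERT;ABCA12-cKO). Controls carried the conditional allele without CreERT (ABCA12-c/c), so the comparison holds the deletion together with the recombinase. The keratin 14 promoter is active in basal keratinocytes of epidermis, follicles and glands. Both groups received tamoxifen at 8 weeks of age, 1 mg per 40 g of body weight on 3 consecutive days, and epidermis was separated from resting-phase (telogen) skin 2 weeks later. There were 4 KA libraries (males in KA 1 and 2, females in KA 3 and 4) and 3 control libraries (females in controls 1 and 3, a male in control 2), with 1 mouse per library by the series' design text.

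Reads in the listed genes ranged from 9590718 to 12761458 per library. These sums cover listed genes only and are not sequencing depths. The basal keratin Krt5 stood at 231900 ± 10490 normalised reads (SD, n = 3) in controls and 327200 ± 27150 (SD, n = 4) in KA. Abca12 itself was not analysed here, so the labels were not checked against the deleted gene. Of 7 dermal fibroblast markers none was in the table. The table lists only genes that passed the authors' test, so this does not show that dermal cells were absent. Normalised reads are counts divided by the authors' size factor of each library. Log2 fold changes come from a separate fit scaled on the listed genes (edgeR with TMM factors), and the authors' factors raised them by a median of 0.13, so small changes are to be read against that shift.

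In epidermis, p63 is known for holding the basal layer. Cells leave that layer to form the spinous and granular layers under factors such as Grainyhead-like, Ovo-like, Dlx3, Gata3 and the epithelial ETS proteins. Follicle stem cells of the bulge depend on factors that include Sox9, Lhx2 and Nfatc1, and Runx1 takes part in their activation. Hox genes lie in clusters whose order along the chromosome matches their order of use along the body, and adult skin cells keep a Hox pattern that reflects body site.

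The first question was which members differed between KA and control epidermis. All 50 had enough reads to be tested, and 48 passed at 0.05 (quasi-likelihood test of edgeR, adjusted by Benjamini-Hochberg over all genes tested, and so wherever an edgeR adjusted p is given), 18 higher and 30 lower in KA. Over all 6761 genes tested, 91.5% passed, 44.0% as higher and 47.5% as lower, so passing as such says little about the members. The median log2 fold change of the members was -0.75, against 0.22 for all genes tested, and 60.0% of members had a value below 0, against 47.5% of all genes tested. The other 389 genes that the table labels as transcription factors leaned further, with 67 called higher, 310 lower and a median of -0.82. With a change of at least 1 on the log2 scale required as well, 8 members were higher and 15 lower, where 16.9% and 24.6% of all genes tested met these rules. Among the 4 mice with the lower animal numbers, tested alone (2 per group), 18 members were higher and 30 lower, and among females alone (2 per group) 13 were higher and 22 lower. The labels do not say whether runs of animal numbers mark batches. In KA the males had the lower numbers and the females the higher ones, so sex and run cannot be told apart there. In bulk epidermis, fewer cells of a type and less RNA per cell cannot be told apart.

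**Figure D1:**
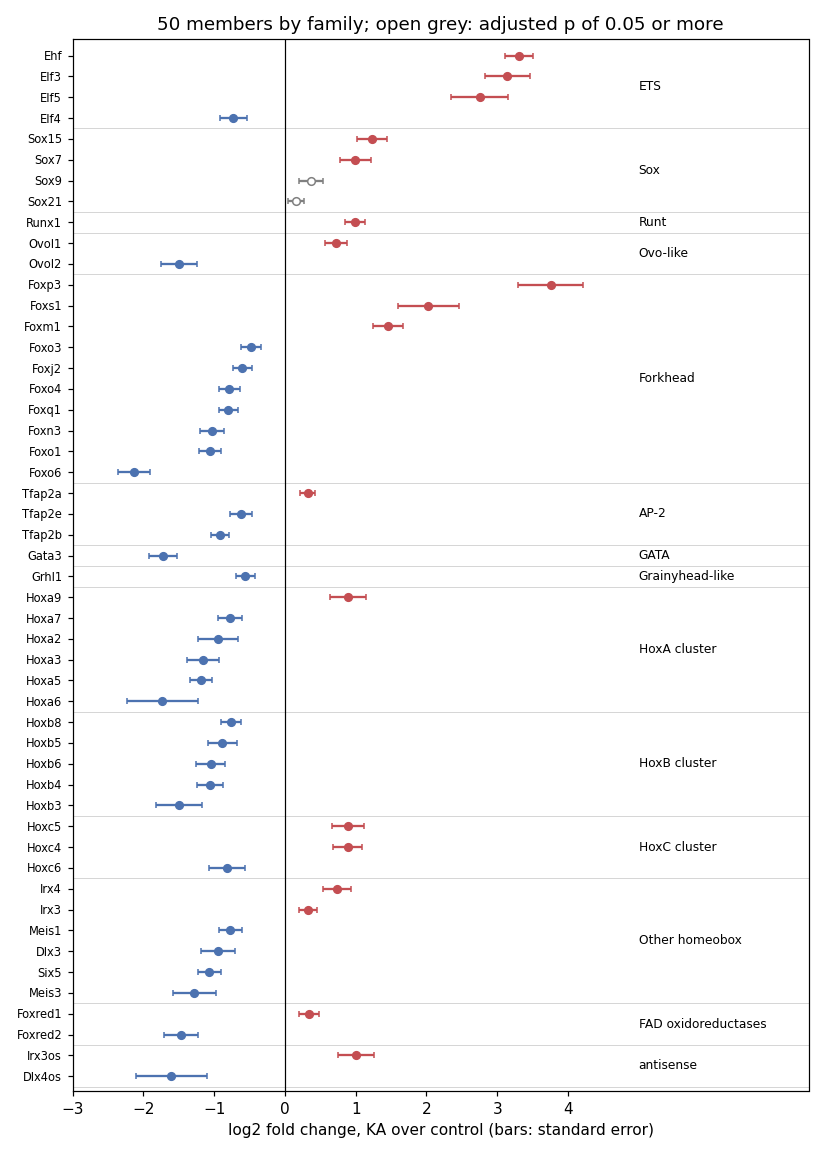
Log2 fold change of KA over control (x axis) for the 50 members, grouped by family, with standard errors as bars. Red points were called higher, blue points lower, and open grey points (Sox9 and Sox21) were not called. The ETS genes Ehf, Elf3 and Elf5 and the forkhead gene Foxp3 lie farthest to the right, and Foxo6 lies farthest to the left.

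Normalised reads did not overlap between groups in 47 members, with KA higher in 19 and lower in 28. Among all listed genes 48.8% had all KA libraries above all controls and 44.5% had them below. The 3 members with overlap were Elf4, Hoxa6 and Sox9. Within the KA group, KA 3 was the library nearest to the controls in 21 of the 30 members called lower (70.0%), and it held that place in 47.3% of all genes called lower. KA 4 was nearest in 10 of the 18 members called higher (55.6%), against 32.9% of all genes called higher. KA 1 was nearest in 1 of the 48 called members.

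Upstream sequences of 7 members, chosen after their values were seen, are shown because the members called higher and lower held different numbers of CG dinucleotides before their start sites. RefSeq promoters on GRCm38.p6 were found for 35 of the 50 members, and the 250 bases before each start were read. RefSeq starts lay from 0 to 113508 bases from the gene start in the table, so some of the stretches lie inside the annotated gene. The CG dinucleotide, the site of vertebrate DNA methylation, occurred a median of 7 times in the 12 members called higher and 14.5 times in the 22 called lower. Over all genes called higher the median was 15 (2236 promoters) and over all genes called lower it was 14 (2388 promoters), and over all 32851 RefSeq promoters it was 6. Below are stretches before the RefSeq start, trimmed to the part outside annotated exons, 5′ to 3′ on the gene's strand, with every CG in capitals. Elf3 (chr1:135258569-135258722, minus strand), Runx1 (chr16:92826150-92826324, minus strand) and Hoxa9 (chr6:52227371-52227620, minus strand) rose. Foxo1 (chr3:52268087-52268335, plus strand), Hoxb8 (chr11:96281655-96281904, plus strand), Hoxa2 (chr6:52164832-52165081, minus strand) and Hoxa7 (chr6:52218712-52218823, minus strand) fell. The RefSeq starts of Hoxa9 and Hoxa7 lie 3719 and 3281 bases inside the genes as annotated in the table, and those of the other 5 lie within 96 bases of the table's start.
Elf3: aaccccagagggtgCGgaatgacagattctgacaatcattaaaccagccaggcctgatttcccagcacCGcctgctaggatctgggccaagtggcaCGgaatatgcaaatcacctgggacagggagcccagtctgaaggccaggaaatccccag
Runx1: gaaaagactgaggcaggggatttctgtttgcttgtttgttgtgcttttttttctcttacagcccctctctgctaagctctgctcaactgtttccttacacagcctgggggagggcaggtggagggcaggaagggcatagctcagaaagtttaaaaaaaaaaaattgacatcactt
Hoxa9: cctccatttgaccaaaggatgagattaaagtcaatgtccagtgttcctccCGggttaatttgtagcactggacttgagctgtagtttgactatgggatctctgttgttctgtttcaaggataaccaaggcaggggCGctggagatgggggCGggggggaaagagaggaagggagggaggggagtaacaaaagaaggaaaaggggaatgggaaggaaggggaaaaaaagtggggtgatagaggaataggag
Foxo1: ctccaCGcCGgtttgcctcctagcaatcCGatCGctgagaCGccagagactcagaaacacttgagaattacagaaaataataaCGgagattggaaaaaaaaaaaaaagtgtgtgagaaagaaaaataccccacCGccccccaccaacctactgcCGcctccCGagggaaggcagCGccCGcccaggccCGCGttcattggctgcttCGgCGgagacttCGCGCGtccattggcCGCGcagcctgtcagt
Hoxb8: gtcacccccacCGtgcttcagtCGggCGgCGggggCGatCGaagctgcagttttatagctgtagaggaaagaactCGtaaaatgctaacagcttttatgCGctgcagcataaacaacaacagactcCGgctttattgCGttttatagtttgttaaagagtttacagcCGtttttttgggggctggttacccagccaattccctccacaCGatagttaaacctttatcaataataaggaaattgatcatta
Hoxa2: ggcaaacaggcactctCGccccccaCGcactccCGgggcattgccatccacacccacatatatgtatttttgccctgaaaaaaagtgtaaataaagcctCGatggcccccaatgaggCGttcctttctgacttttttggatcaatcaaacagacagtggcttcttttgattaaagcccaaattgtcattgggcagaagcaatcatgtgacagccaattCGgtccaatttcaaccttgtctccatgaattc
Hoxa7: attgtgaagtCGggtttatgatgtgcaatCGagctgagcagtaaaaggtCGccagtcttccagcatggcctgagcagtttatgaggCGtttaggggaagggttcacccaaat
The stretches of Elf3, Runx1 and Hoxa9 hold 3, 0 and 3 CG pairs, and those of Foxo1, Hoxb8, Hoxa2 and Hoxa7 hold 20, 12, 6 and 4. The lengths shown are 154, 175, 250, 249, 250, 250 and 112 bases in that order. Before trimming, the full 250 bases held 8 CG pairs for Elf3, 2 for Runx1 and 7 for Hoxa7. The medians do not hold for each member: Foxred1 and Irx4 were called higher with 29 and 22 CG pairs in their 250 bases, and Hoxa2 and Hoxa7 were called lower with 6 and 7. These counts describe 1 RefSeq start per gene, chosen nearest to the gene start in the table, and methylation was not measured. Exact matches on either strand to CGGAAG (an ETS core) were found in 2 of 12 promoters of members called higher and 3 of 22 called lower, against 13.6% of all promoters. The AP-1 motif TGANTCA was found in 0 and 2 of them, against 6.75%. AGATAA, the motif of Gata3 and its relatives, was found in neither set, against 9.99%. The homeodomain motif TAATTA was found in 1 and 0, against 4.84%. None of these 4 motifs contains another, and TGANTCA and TAATTA read alike on both strands. The shares for comparison are over all 32851 RefSeq promoters, whose median CG count was below that of the called genes. CGGAAG itself holds a CG. Shares over all called genes were not computed.

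Of the 4 ETS genes, Ehf, Elf3 and Elf5, which are known from epithelia, had the largest rises of the 50 members after Foxp3, and Elf4 fell. Ehf (ENSMUSG00000012350, chromosome 2, 103263433 to 103303278, minus strand of GRCm38), an ETS factor of epithelia, had 324, 340 and 356 normalised reads across controls 1 to 3, and 4767, 3675, 2514 and 3876 across KA 1 to 4. The control values lay within a narrow range and every KA library was several fold above it. The means were 340 ± 16.1 (SD, n = 3) and 3708 ± 927 (SD, n = 4), a 10.9-fold difference, and the log2 fold change was 3.31 (SE 0.20; edgeR adjusted p = 1.73e-06). Elf3 (ENSMUSG00000003051, chromosome 1, 135253575 to 135258568, minus strand), known for driving late differentiation genes of epithelia, was low in controls at 13.3, 18.6 and 32.9 normalised reads. In KA 1 to 4 it reached 273, 233, 177 and 170, a log2 fold change of 3.15 (SE 0.32; edgeR adjusted p = 3.94e-05). Both male KA libraries were above both female ones for Elf3, though sex and animal number run cannot be told apart within KA. Elf5 (ENSMUSG00000027186, chromosome 2, 103411688 to 103450989, plus strand), which is known from mammary and other glandular epithelium, went from 23.7, 24.7 and 42.5 to 376, 208, 108 and 220, a log2 fold change of 2.75 (SE 0.41; edgeR adjusted p = 0.000271). KA 1 held the highest value of Ehf, Elf3 and Elf5 alike, and KA 3 the lowest of Ehf and Elf5.

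Ehf and Elf5 are neighbours on chromosome 2, 108.4 kb apart, with 0 annotated protein-coding genes wholly between them. Elf4, a family member better known from lymphocytes, was lower in KA at 487, 454, 407 and 664 normalised reads, against 908, 723 and 649 in controls. KA 4 lay above control 3, so its groups overlapped (log2 fold change -0.73, SE 0.19; edgeR adjusted p = 0.00526), and among females alone Elf4 did not pass. Per kb of transcript, Elf4 was the highest of the 4 ETS members in controls (124 normalised reads per kb) and Ehf the second (61.0). In KA Ehf was the highest (665 per kb), followed by Elf3 (96.2) and Elf4 (81.8), whose ranges over libraries overlapped.

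**Figure D2:**
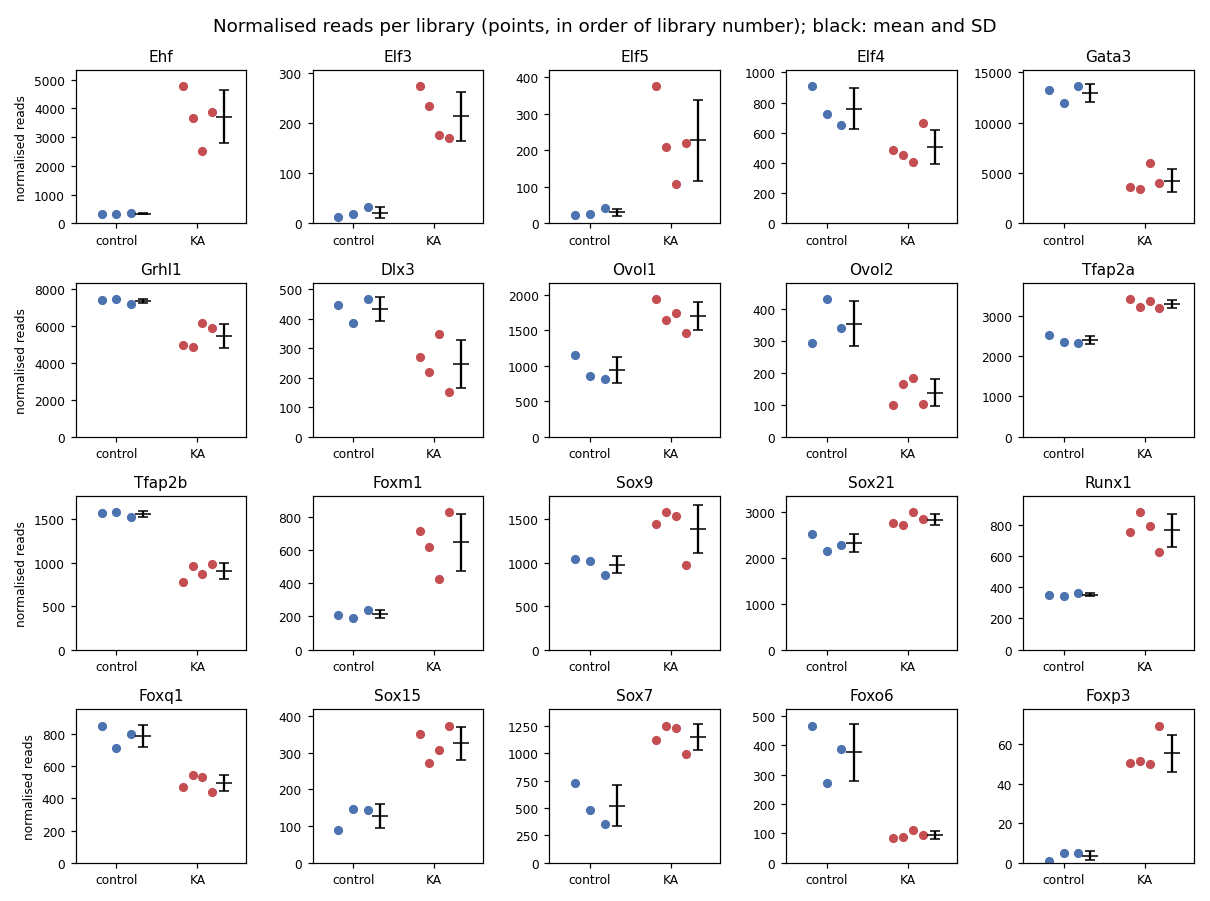
Normalised reads (y axis, from 0) of 20 members in each library, controls in blue and KA in red, in order of library number, with the mean and SD in black. Ehf, Elf3, Elf5 and Foxp3 were low in all 3 controls, while Gata3 fell from at least 11950 in every control to at most 5987 in KA. Sox9 overlapped because KA 4 lay at 976, below 2 of the controls.

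Of 11 factors listed for the differentiated layers, 7 were in the table, with 4 called higher (Ehf, Elf3, Elf5 and Ovol1) and 3 lower (Gata3, Grhl1 and Dlx3). Gata3 (ENSMUSG00000015619, chromosome 2, 9857078 to 9890034, minus strand), a zinc finger factor of suprabasal epidermis and the inner root sheath that also serves T cells, had the highest level per kb of all members in controls. It stood at 13210, 11950 and 13630 normalised reads in controls and at 3583, 3452, 5987 and 4021 in KA 1 to 4. Every KA library was far below the lowest control, with KA 3 highest. The log2 fold change was -1.73 (SE 0.20, edgeR adjusted p = 6.90e-05). Gata3 overlaps 4930412O13Rik, on the other strand, which had a log2 fold change of -1.37. Grhl1 (ENSMUSG00000020656, chromosome 12, 24572283 to 24617391, plus strand), a regulator of desmosomal cadherins, was 7434, 7457 and 7227 in controls and 4955, 4880, 6174 and 5878 in KA. It changed less (log2 fold change -0.56, SE 0.13; edgeR adjusted p = 0.00294), with no overlap, and did not pass among females alone. Dlx3 (ENSMUSG00000001510, chromosome 11, 95120119 to 95125296, plus strand), a homeobox factor of granular layer and hair, was 445, 386 and 465 in controls and 269, 217, 347 and 153 in KA (log2 fold change -0.94, SE 0.24; edgeR adjusted p = 0.00438). The lowest and the highest KA values were both from females.

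The Ovo-like pair moved in opposite directions. Ovol1 (ENSMUSG00000024922, chromosome 19, 5549137 to 5560575, minus strand), a zinc finger repressor that helps progenitors stop dividing and differentiate, rose from a control mean of 936 ± 181 normalised reads (SD, n = 3) to a KA mean of 1698 ± 197 (SD, n = 4), with a log2 fold change of 0.72 (SE 0.15; edgeR adjusted p = 0.00188). Ovol2 (ENSMUSG00000037279, chromosome 2, 144305175 to 144332146, minus strand), its relative that guards epithelial identity, was 292, 430 and 339 in controls and 99.9, 163, 183 and 102 in KA. Every KA value of Ovol2 was below every control (log2 fold change -1.50, SE 0.26; edgeR adjusted p = 0.000558). In controls Ovol1 had 323 normalised reads per kb and Ovol2 167. In KA they had 585 and 64.8.

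Of 7 factors listed for the basal layer and proliferation, 4 were in the table, 2 called higher (Foxm1 and Tfap2a) and 2 lower (Ovol2 and Tfap2b). Tfap2a (ENSMUSG00000021359, chromosome 13, 40715302 to 40738376, minus strand), the AP-2 factor of surface ectoderm, was 2521, 2357 and 2312 normalised reads in controls and 3407, 3217, 3355 and 3190 in KA. The groups were tight and separate, but the fitted change was small (log2 fold change 0.32, SE 0.10; edgeR adjusted p = 0.0127). Without control 2 the adjusted p of Tfap2a was 0.0503, and it did not pass in the lower run of animal numbers or in females alone. Tfap2b (ENSMUSG00000025927, chromosome 1, 19208914 to 19238576, plus strand) went the other way, from 1577, 1578 and 1524 to 783, 963, 873 and 987 (log2 fold change -0.92, SE 0.13; edgeR adjusted p = 0.000163). The remaining AP-2 gene, Tfap2e, fell from a control mean of 1031 ± 54 (SD, n = 3) to a KA mean of 734 ± 137 (SD, n = 4), a log2 fold change of -0.62. Summed over the 3 AP-2 members, the level was 1183 to 1253 normalised reads per kb in controls and 1102 to 1228 in KA, ranges that overlap.

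Foxm1 (ENSMUSG00000001517, chromosome 6, 128362967 to 128376146, plus strand), the forkhead activator of mitotic genes, was 207, 193 and 240 normalised reads in controls and 714, 616, 422 and 824 in KA 1 to 4. All KA libraries were higher, with KA 3 lowest (log2 fold change 1.46, SE 0.22; edgeR adjusted p = 0.000249). Of the 10 forkhead genes in the table, 3 were called higher and 7 lower. Values below 0 were found in 70.0% of them, in 79.7% of the other 389 genes labelled as transcription factors and in 47.5% of all genes tested.

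The 4 FoxO genes, of a forkhead subfamily known for acting downstream of insulin signalling, all fell. Since 79.7% of the other 389 genes labelled as transcription factors had a value below 0, this count says little about the subfamily. Over all genes tested the share was 47.5%. Foxo6 (ENSMUSG00000052135, chromosome 4, 120267079 to 120287349, minus strand) was 468, 273 and 388 normalised reads in controls and 84.1, 86.8, 113 and 93.4 in KA. Its KA values lay close together at well under every control, a 3.99-fold fall (log2 fold change -2.13, SE 0.22; edgeR adjusted p = 4.51e-05). Foxo1 (ENSMUSG00000044167, chromosome 3, 52268336 to 52353221, plus strand) was 1032, 1097 and 1369 in controls and 541, 551, 647 and 704 in KA, again with no overlap (log2 fold change -1.06, SE 0.15; edgeR adjusted p = 0.000207). Foxo4 had a log2 fold change of -0.79 and Foxo3 one of -0.48. Foxo3 no longer passed without control 3 (log2 fold change -0.30, adjusted p = 0.068) or in females alone. Foxn3, a forkhead repressor, fell from a control mean of 3001 ± 242 (SD, n = 3) to a KA mean of 1613 ± 317 (SD, n = 4), with a log2 fold change of -1.03 (SE 0.17; edgeR adjusted p = 0.000442), and Foxj2 had a log2 fold change of -0.60. Summed over the 10 forkhead genes, the level was 1546 to 1764 normalised reads per kb in controls and 1022 to 1224 in KA, which do not overlap.

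Of 17 factors listed for the follicle and its stem cells, 4 were in the table (Sox9, Runx1, Sox21 and Foxq1), 1 called higher, 1 lower and 2 not called. Sox9 (ENSMUSG00000000567, chromosome 11, 112782224 to 112787760, plus strand), which maintains bulge stem cells, was 1048, 1022 and 862 normalised reads in controls and 1451, 1578, 1533 and 976 in KA 1 to 4. Of the KA libraries 3 were above all controls and KA 4 was not. Sox9 did not pass here (log2 fold change 0.36, SE 0.17, edgeR adjusted p = 0.062). It passed without KA 4 (log2 fold change 0.50, adjusted p = 0.00747) and with the authors' size factors (0.50, adjusted p = 0.0163). It also passed with the replicate block (0.50, adjusted p = 0.0208), with a term for the animal number run and in the lower run alone. No control shares the number of KA 4, so KA 4 adds nothing to the group difference in the replicate block. The lower run leaves KA 4 out as well, so these 2 settings are not separate from its removal. Sox21 (ENSMUSG00000061517, chromosome 14, 118233232 to 118237030, minus strand), a factor of the hair shaft cuticle, was 2531, 2155 and 2277 in controls and 2768, 2709, 2991 and 2854 in KA. Its normalised reads were separate, yet it did not pass under the scaling used (log2 fold change 0.15, SE 0.11; edgeR adjusted p = 0.209) and passed with the authors' size factors (0.29, adjusted p = 0.0262). Without control 1 its log2 fold change was 0.27.

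Runx1 (ENSMUSG00000022952, chromosome 16, 92601466 to 92826149, minus strand), a Runt factor of follicle stem cell activation and also of blood cells, was 349, 342 and 360 normalised reads in controls and 755, 878, 791 and 627 in KA. The KA values were all above the controls, 2.17-fold by the means (log2 fold change 0.99, SE 0.14; edgeR adjusted p = 0.000203). Foxq1 (ENSMUSG00000038415, chromosome 13, 31556134 to 31560976, plus strand), known for the hair medulla, was 851, 713 and 799 in controls and 469, 548, 531 and 442 in KA (log2 fold change -0.80, SE 0.13; edgeR adjusted p = 0.000501). Sox15 (ENSMUSG00000041287, chromosome 11, 69655314 to 69656727, plus strand), a small Sox factor, was 89.0, 145 and 145 in controls and 350, 272, 307 and 374 in KA, so each KA library was above all controls (log2 fold change 1.23, SE 0.22; edgeR adjusted p = 0.000626). It overlaps Mpdu1, on the other strand, which had a log2 fold change of 0.56.

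**Figure D3:**
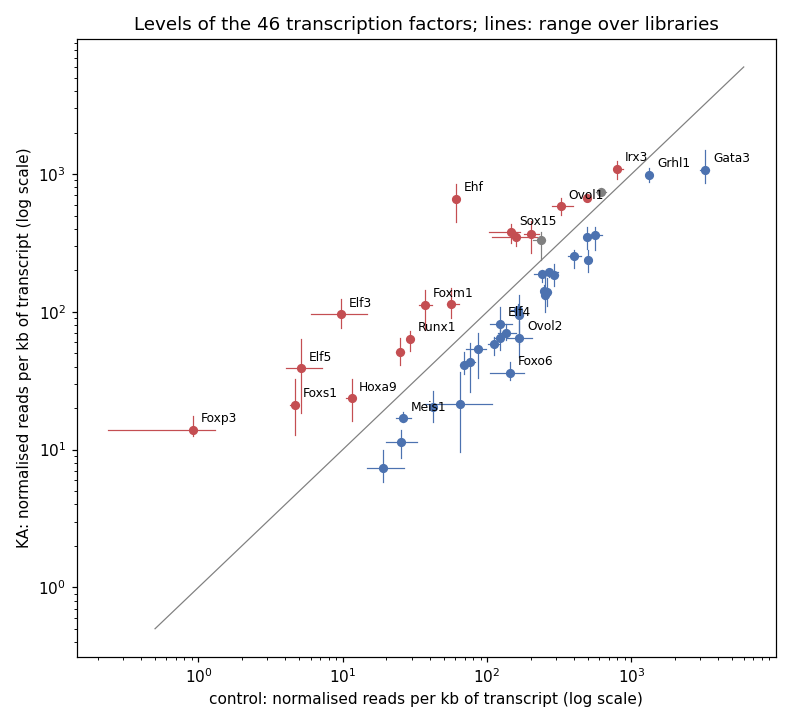
Mean level of the 46 transcription factors in KA (y axis) against controls (x axis), in normalised reads per kb of transcript on log scales, with the range over libraries as lines and equality as the grey diagonal. Ehf lies far above the diagonal and Gata3 below it, so that Gata3, Grhl1 and Irx3 share the top in KA with overlapping ranges.

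In levels per kb of transcript, Gata3 led the controls with 3251 normalised reads per kb (range 3005 to 3427), well apart from Grhl1 at 1331 (1305 to 1346), Irx3 at 796 (759 to 871) and Sox21 at 611 (567 to 666). None of these neighbours overlapped in range. In KA, Irx3 at 1095 (928 to 1236), Gata3 at 1071 (868 to 1505) and Grhl1 at 988 (881 to 1115) could not be put in order, since their ranges overlap. Ehf, at 61.0 (58.1 to 63.9) in controls, reached 665 (451 to 855) in KA, a range that overlaps those of Sox21, Tfap2a and Ovol1. Sox15 reached 378 (315 to 434) in KA, which overlaps Irx4, Hoxa7, Tfap2e, Sox7 and Sox9. Foxp3 had the lowest level in controls, at 0.912 per kb.

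Of the 39 annotated Hox genes, 14 were in the table, and 11 of these were called lower and 3 higher. Values below 0 were found in 78.6% of the 14, near the 79.7% of the other 389 genes labelled as transcription factors. Over all genes tested the share was 47.5%. In the HoxA cluster on chromosome 6, 6 of 11 genes were in the table, with Hoxa2, Hoxa3, Hoxa5, Hoxa6 and Hoxa7 lower and Hoxa9 higher. Hoxa5 (ENSMUSG00000038253, 52201754 to 52204587, minus strand) was 921, 983 and 899 normalised reads in controls and 366, 437, 529 and 463 in KA (log2 fold change -1.19, SE 0.15; edgeR adjusted p = 0.00012). Hoxa7 (ENSMUSG00000038236, 52214491 to 52221854, minus strand), the HoxA member with the highest level per kb in controls, was 1802, 1528 and 1516 in controls and 803, 950, 1189 and 1188 in KA (log2 fold change -0.78, SE 0.17; edgeR adjusted p = 0.00214). Both genes fell without overlap, and their KA males were lower than their KA females. Within KA, a difference by sex cannot be told from one by animal number run. Hoxa9 (ENSMUSG00000038227, 52223100 to 52231089, minus strand), the next annotated Hox gene in the cluster, was 68.2, 66.0 and 58.5 in controls and 182, 139, 117 and 89.3 in KA. The Hoxa9 values rose in every KA library, least in the females (log2 fold change 0.89, SE 0.26; edgeR adjusted p = 0.00811), and did not pass in females alone. Hoxa6 rested on few reads and on control 1, with 94.7 normalised reads there, 43.3 and 32.1 in the other controls and 21.8, 12.4, 8.36 and 32.2 in KA. Its log2 fold change was -1.73 (edgeR adjusted p = 0.0084), and without control 1 it was -1.09 (adjusted p = 0.0671). Hoxa3 was 261, 251 and 244 in controls and 96.0, 101, 160 and 136 in KA, without overlap (log2 fold change -1.16, SE 0.22; edgeR adjusted p = 0.00106). Hoxa3 as annotated spans Hoxa5 and Hoxa6 on the same strand, so how reads were divided between them is uncertain. On the other strand Hoxa3 overlaps 5730596B20Rik, which had a log2 fold change of -2.24.

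In the HoxB cluster on chromosome 11, 5 of 10 genes were in the table and all 5 fell. Hoxb8 (ENSMUSG00000056648, 96281905 to 96285315, plus strand) was 721, 753 and 814 normalised reads in controls and 472, 507, 582 and 406 in KA (log2 fold change -0.77, SE 0.14; edgeR adjusted p = 0.000919). Hoxb6 went from a control mean of 494 ± 15.3 (SD, n = 3) to a KA mean of 261 ± 68.6 (SD, n = 4) and Hoxb4 from a control mean of 313 ± 24.3 (SD, n = 3) to a KA mean of 165 ± 23.6 (SD, n = 4). The 5 log2 fold changes ran from -1.50 (Hoxb3) to -0.77 (Hoxb8), and no KA library overlapped a control in any of these genes. Among all listed genes 44.5% had every KA library below every control. Summed over the 5, the level was 733 to 766 normalised reads per kb in controls and 364 to 533 in KA.

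In the HoxC cluster on chromosome 15, 3 of 9 genes were in the table and they did not move together. Hoxc4 (ENSMUSG00000075394, 103018934 to 103036852, plus strand) was 138, 135 and 163 normalised reads in controls and 271, 293, 382 and 234 in KA (log2 fold change 0.89, SE 0.21; edgeR adjusted p = 0.00286). Hoxc5 was 75.7, 72.2 and 82.6 in controls and 147, 151, 201 and 128 in KA (log2 fold change 0.89, SE 0.22). The KA libraries kept the same order for Hoxc4 and Hoxc5, with KA 3 highest and KA 4 lowest. Hoxc6, which lies inside the annotated span of Hoxc5 on the same strand, was 236, 213 and 171 in controls and 124, 142, 168 and 79.9 in KA, with a log2 fold change of -0.82 (SE 0.26; edgeR adjusted p = 0.0115). Without control 1 Hoxc6 was at -0.66 (adjusted p = 0.0581), and with the replicate block at -0.66 (adjusted p = 0.0525). The division of reads between Hoxc5 and Hoxc6 is uncertain.

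**Figure D4:**
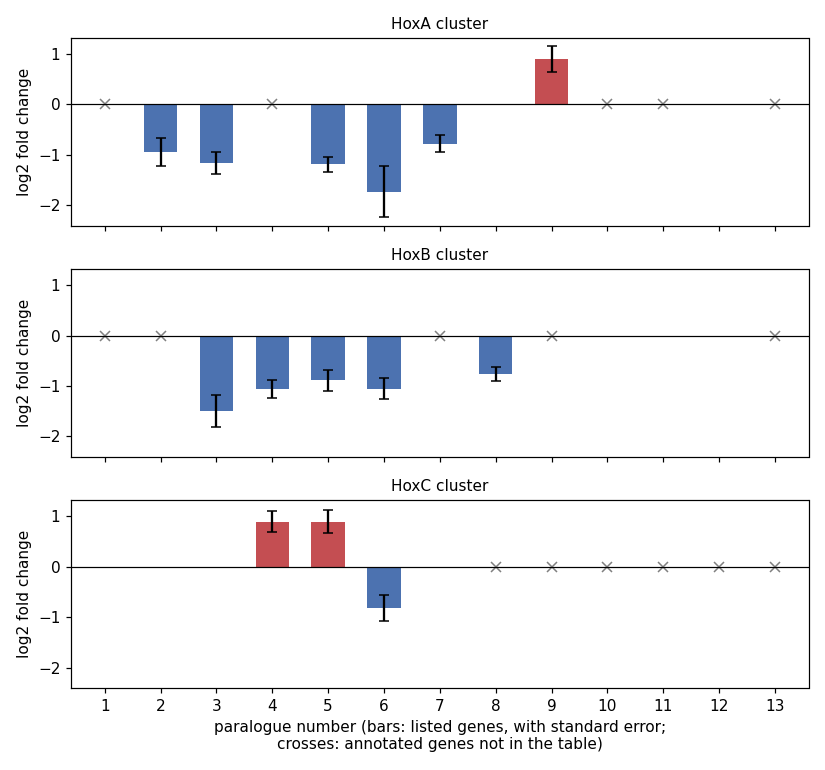
Log2 fold change of KA over control (y axis) by paralogue number (x axis) in the HoxA, HoxB and HoxC clusters, with standard errors, red for values above 0 and blue for values below, and crosses for annotated genes that are not in the table. The listed HoxB genes and Hoxa2 to Hoxa7 lie below 0, and Hoxa9, Hoxc4 and Hoxc5 lie above it.

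Meis proteins are homeobox cofactors that bind DNA with Hox proteins, and both listed genes fell, Meis1 by 0.77 and Meis3 by 1.28 on the log2 scale. Meis3 (ENSMUSG00000041420, chromosome 7, 16175090 to 16186504, plus strand) was 103, 62.9 and 74.6 normalised reads in controls and 27.7, 29.3, 43.9 and 43.6 in KA (edgeR adjusted p = 0.00317). Six5, a homeobox gene of the sine oculis class, fell from a control mean of 336 ± 30.6 (SD, n = 3) to a KA mean of 176 ± 22.4 (SD, n = 4), with a log2 fold change of -1.07 (edgeR adjusted p = 0.000326). The 2 Iroquois genes in the table were higher in KA. Irx4 was 504, 471 and 600 in controls and 700, 1095, 1186 and 835 in KA (log2 fold change 0.73, SE 0.20; edgeR adjusted p = 0.00596). Irx3 had a log2 fold change of 0.32 (edgeR adjusted p = 0.0284) and did not pass without control 1 (0.34, adjusted p = 0.0506), without control 2 (0.29, adjusted p = 0.0972), without KA 4 (0.25, adjusted p = 0.07), with the replicate block (0.25, adjusted p = 0.128) or in females alone. Irx3os, which overlaps Irx3 on the other strand, was 37.9, 45.4 and 52.9 in controls and 112, 105, 111 and 72.7 in KA, a log2 fold change of 1.00. No source used here says whether the counting used strand, so reads of this pair cannot be told apart.

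The other 3 members that are not transcription factors can be given briefly. Dlx4os (edgeR adjusted p = 0.0119) fell from a control mean of 20.9 ± 10.4 normalised reads (SD, n = 3) to a KA mean of 7.4 ± 3.04 (SD, n = 4), and without control 2 its log2 fold change was -1.18 (adjusted p = 0.0717). Foxred2, an oxidoreductase of the endoplasmic reticulum, fell from a control mean of 343 ± 78.9 (SD, n = 3) to a KA mean of 135 ± 32.7 (SD, n = 4), a log2 fold change of -1.48 (edgeR adjusted p = 0.000436). Foxred1, of the mitochondrion, had a log2 fold change of 0.34 (edgeR adjusted p = 0.0399). Its call was lost without control 1 (0.31, adjusted p = 0.0877), control 2 (0.33, adjusted p = 0.0999), KA 1 (0.31, adjusted p = 0.0686) or KA 4 (0.28, adjusted p = 0.0941), with RLE factors, with DESeq2, with the replicate block (0.27, adjusted p = 0.167), with a term for the animal number run and in females alone.

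Of 22 factors listed for other skin cell types, 2 were in the table and both rose. Foxp3 (ENSMUSG00000039521, chromosome X, 7579676 to 7595243, plus strand), the defining factor of regulatory T cells, had 1, 5 and 6 counts across controls 1 to 3, and 51, 46, 48 and 67 across KA 1 to 4. The control counts are too few to give the fold closely, and every KA library was far above them (log2 fold change 3.75, SE 0.46; edgeR adjusted p = 9.55e-05). T cell markers did not rise with it as a group. Of 7 such markers, 5 were in the table, with Cd2 called higher, Cd3e, Cd3g and Trdc lower and Trac not called. Trdc, a chain of the gamma delta T cell receptor, fell from a control mean of 444 ± 58.5 normalised reads (SD, n = 3) to a KA mean of 138 ± 15.8 (SD, n = 4). Trac, a chain of the alpha beta receptor, was 21.8, 46.4 and 65.0 in controls and 53.4, 108, 79.4 and 120 in KA (edgeR adjusted p = 0.0511). The summed level of the 5 was 1228 to 1591 in controls and 764 to 860 in KA. That sum pools markers of both receptor types, and Cd3g, Trdc and Cd3e were its largest parts in controls. The part of T cells in the values of Foxp3, Gata3, Runx1 and Elf4 was not tested.

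Sox7 (ENSMUSG00000063060, chromosome 14, 63943673 to 63950732, plus strand), a Sox factor known from endothelium, was 726, 483 and 357 normalised reads in controls and 1123, 1251, 1225 and 988 in KA (log2 fold change 1.00, SE 0.23; edgeR adjusted p = 0.00254). Foxs1, known from vessel-associated cells, had 6, 6 and 8 counts in controls and 43, 22, 26 and 16 in KA, a log2 fold change of 2.03 (edgeR adjusted p = 0.0018). Of 6 endothelial markers 2 were in the table, Pecam1 and Flt1, and both rose, with a summed level of 16.1 to 33.7 normalised reads in controls and 63.7 to 111 in KA. Per kb of transcript, Sox7 stood at 158 normalised reads in controls, far above Pecam1 at 2.3 and Flt1 at 0.56. Langerhans cell markers (5 of 5 in the table, all called higher) summed to 18680 to 26110 normalised reads in controls and 36190 to 52750 in KA. The largest part of this sum was Cd74, with a mean of 12240 in controls and 28020 in KA. Cd207 held a small part, with 699 in controls and 1369 in KA. The myeloid markers Cxcr2 and Lyz2 were called higher and Adgre1 lower, with a sum of 160 to 270 in controls and 323 to 562 in KA. Among these markers only Cxcr2 was at 0 in a library, control 1. The melanocyte markers in the table, Dct and Mitf (2 of 6), were called lower, with sums of 328 to 551 in controls and 247 to 335 in KA. The smooth muscle gene Acta2 (1 of 5 muscle markers) was called higher, from 18.9 to 26.8 in controls to 46.2 to 129 in KA. Sebaceous markers (4 of 6 in the table, 3 called higher, Pparg not called) summed to 19620 to 28600 in controls and 37850 to 49600 in KA. The part of these cell types in the values of the members was not tested.

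Genes that work with these factors or are known as their targets also moved both ways. Of 24 other regulators of epidermis, 11 were in the table, 6 called higher, Bnc1, Cebpa, Cebpb and Hr among them, and 5 lower, Id3, Klf4, Lef1 and Maf among them. Cebpb, a leucine zipper factor of differentiating keratinocytes, rose from a control mean of 3040 ± 360 normalised reads (SD, n = 3) to a KA mean of 7722 ± 1811 (SD, n = 4). Klf4, a barrier factor, fell from a control mean of 21750 ± 1778 (SD, n = 3) to a KA mean of 13690 ± 1450 (SD, n = 4). Among calcineurin and its regulators, which control NFAT proteins, 2 of 9 were in the table and both fell. Rcan1, a calcineurin regulator, went from a control mean of 3847 ± 193 (SD, n = 3) to a KA mean of 2271 ± 380 (SD, n = 4), and the catalytic subunit gene Ppp3cc from a control mean of 126 ± 23.6 (SD, n = 3) to a KA mean of 60.4 ± 16.3 (SD, n = 4).

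Of 13 basal layer genes 8 were in the table, 2 called higher (Krt5 and Krt14) and 6 lower, among them Dst, a hemidesmosome linker (log2 fold change -1.51), Fras1 (-1.25) and Lamb3 (-0.79). Of 11 follicle stem cell genes 5 were in the table, 1 called higher (Postn) and 4 lower, among them Krt15, a keratin of the bulge and basal layer. Krt15 had 174900 ± 24170 normalised reads (SD, n = 3) in controls and 40040 ± 21880 (SD, n = 4) in KA, without overlap (log2 fold change -2.25). Lgr5, a receptor of follicle stem cells, had 178 ± 37.1 (SD, n = 3) and 103 ± 43.8 (SD, n = 4), with KA 3 above control 1. Of 14 differentiated layer genes 11 were in the table, 7 called higher and 4 lower. The 7 included Tgm3, a transglutaminase (log2 fold change 3.06), Flg (2.87) and Tgm1 (0.70), and the 4 were Cdsn (-1.64), Dsg1a (-1.36), Lor (-1.97) and Ppl (-1.22). Each of the 3 lists thus held genes called in both directions, as did the lists of factors for the basal layer, the follicle and the differentiated layers. Of all genes tested 44.0% were called higher and 47.5% lower, so holding both directions says little about these lists.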

How the data were processed

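RNA of 7 epidermis samples was sequenced from libraries made with the NEBNext Ultra RNA kit, per the labels' protocols. The submitters' processing notes name fastp, STAR 2.6.1d, featureCounts 1.5.0-p3 and DESeq2 1.40.2, and mm10. The deposited table gives raw read counts per gene and normalised reads, a signal without a unit that the authors made by dividing counts by 1 size factor per library. The authors' own log2 fold change, test score and p-values are further columns, per the file headers, and 0 columns belong to other samples. Strand use in counting is not given in the sources used here. Of the members, 30 overlap another annotated gene, and 25 overlap one on the opposite strand.

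Counts as deposited for the whole table were fitted with edgeR 4.0.16 (R 4.3.3): filterByExpr by group (6761 of 7091 genes kept), TMM factors, robust glmQLFit and glmQLFTest, Benjamini-Hochberg adjustment and a threshold of 0.05. The code was tested on simulated data. The SE of a log2 fold change is its size divided by the root of F. The number of reads and of mice limits precision. Each p-value sets a group difference against the spread between these mice, with each gene's spread drawn toward that of other genes.

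The members and lists were chosen with earlier results of these data known, and the refit repeats a selection made on the same libraries. By rule, 31 members were named: those in 4 role lists and those called with a log2 fold change of at least 1 and a mean of at least 2 CPM. The other members given with values, such as Elf4, Hoxa7, Hoxa9, Hoxb8, the HoxC genes, Irx4 and Foxs1, were chosen after their values were seen. Positions are those of the table, 1-based on GRCm38, where all 50 identifiers were found and 48 had identical ends in GENCODE M21. Alternatives were RLE, upper quartile and the authors' factors, DESeq2 1.42.0, limma-voom (limma 3.58.1), no filter, a floor of 10 mean counts, sex as a covariate, a replicate block, each replicate left out, the authors' adjusted p-values and stricter thresholds. Chosen after seeing the data were a term for the animal number run, its lower run alone and females alone. Some genes of the lists are not reported here.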

Additional observations from a re-analysis of the deposited data

Results flagged for a closer look

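Dixon's ratio, which sets the distance between an extreme KA library and the next one against the span of all 4, exceeded its 95% critical value in 1 of the 50 members. Chance alone gives about 5% of groups, or 2.5 of 50. In Foxp3 the ratio was 0.913, because KA 4 held 69.6 normalised reads and the other KA libraries held 50.1 to 51.8.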

How the results depend on the processing

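No member changed direction under any of the 20 alternatives run for single members, and 35 of 50 kept their call under all of them. Every member had already passed the authors' test, and the alternatives reuse the same libraries or part of them, so this stability was largely built in. The matching share over all genes tested is not given here. With a log2 fold change of at least 1 required, 8 members were higher and 15 lower. Leaving out each replicate gave 15 to 18 higher and 28 to 30 lower. Other alternatives gave 13 to 20 higher and 22 to 30 lower, with the lowest counts in females alone. That setting lost 13 calls: Tfap2a, Elf4, Foxred1, Foxo3, Grhl1, Hoxa2, Hoxa6, Hoxa9, Hoxc6, Irx3, Meis1, Dlx4os and Irx3os. It has 2 mice per group. Same-numbered samples did not deviate together (correlations of -0.20, 0.15 and -0.09 across genes for numbers 1, 2 and 3), so the numbers are not taken as pairs. The fit with the replicate block gave 17 members higher and 29 lower, and not every sample correlated best with its own number. Few reads limit Foxp3, Foxs1, Hoxa6 and Dlx4os, each with at most 10 counts in some library.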
